A study of Homo sapiens with 12 samples.

Results

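To ask whether silencing of CDK12 alters the response of early replicating regions (ERRs) to Myc, the effect of MycER activation was compared between control and silenced cells, region by region. The regions analysed were those found exactly once in every list of ERRs on the autosomes: lists of 4 conditions were merged wherever regions overlapped or touched, and 2061 of 4886 autosomal merged regions (42.2%) held 1 region of each list. The whole series, with all other chromosomes, merged into 4996 regions. For each kept region the interaction was computed as the log2 ratio of shCDK12 + OHT over shCDK12 minus the log2 ratio of shNT + OHT over shNT. A positive value means that the ratio with OHT was higher in silenced cells than in control cells, and 0 means that the ratios were equal. The value was computed for width and for read density (reads per base of the region, divided by the median of its list over the kept regions).

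The cells were U2OS, a human osteosarcoma line, that expressed the MycER chimera and carried an inducible short hairpin RNA, either non-targeting (shNT) or against CDK12 (shCDK12). All 4 conditions, with 3 samples each, received doxycycline at 1 µg/mL, and MycER was switched on in shNT + OHT and shCDK12 + OHT with 300 nM 4-hydroxytamoxifen (OHT) over 40 h. All cells were arrested in mitosis with nocodazole at 100 ng/mL for 8 h, shaken off and released for 24 h into 25 µM EdU and 2 mM hydroxyurea. The authors merged the 3 samples of a condition into 1 list, so that no value below has a replicate error and no difference between conditions was tested. The EdU lists hold no measure of CDK12 or MycER levels, so that neither silencing nor activation could be checked here.

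DNA replication begins at origins that fire in a set order, and open, transcribed chromatin is generally copied first. EdU is built into newly made DNA, while hydroxyurea depletes nucleotides and slows the forks, so that label gathers around the origins that fire early in S phase. An ERR is a stretch called for such label. Its width is set by how far the called signal extends and its density by how much label it holds. Myc is a transcription factor that drives growth and entry into S phase, and CDK12 is a kinase that phosphorylates RNA polymerase II during elongation and is needed for full expression of long genes, among them many genes of DNA repair.

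Of the merged regions that were left out, 1954 were absent from at least 1 list and 871 held several regions of a list. The latter were wide, with a median merged width of 237.6 kb against 82.8 kb in the kept regions, and made up 47.3% of the merged length, whereas the kept regions made up 36.6%. Regions that split or joined between conditions are thus not described by the values below. Where 4 values follow each other below, they are those of shNT, of shNT + OHT, of shCDK12 and last of shCDK12 + OHT. The kept regions held between 5586867 reads (shCDK12) and 20596679 reads (shNT + OHT), with a median per region of 1511, 4206, 1167 and 2789 reads. Median read density was 23.8 reads per kb in shNT and 65.3 in shNT + OHT, a 2.74-fold difference. It was 20.1 in shCDK12 and 39.6 in shCDK12 + OHT, a 1.97-fold difference. The interaction of these medians, -0.47 on the log2 scale, was removed by the scaling. A density interaction of 0 therefore marks a region that moved with the median of the lists, and says nothing of how much EdU signal the cells had in all.

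Width, which was not scaled, differed between the conditions mainly in 1 direction. The median width of the kept regions was 66.4 kb in shNT and 67.6 kb in shNT + OHT, but 60.8 kb in shCDK12 and 72.8 kb in shCDK12 + OHT. Silenced cells thus had the narrowest median without OHT and the widest with it. The median log2 width ratio with OHT was 0.00 in shNT cells and 0.08 in shCDK12 cells, and the median width interaction was 0.09 (quartiles -0.04 and 0.38). An interaction was called high at 0.32 or more on the log2 scale and low at -0.32 or less. The width interaction was high in 589 regions (28.6%) and low in 153 (7.42%). Past 1.5-fold the numbers were 322 (15.6%) and 58 (2.81%). Among the 1097 regions with at least 1000 reads in every list the median was 0.035, with 172 high and 45 low.

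**Figure D1:**
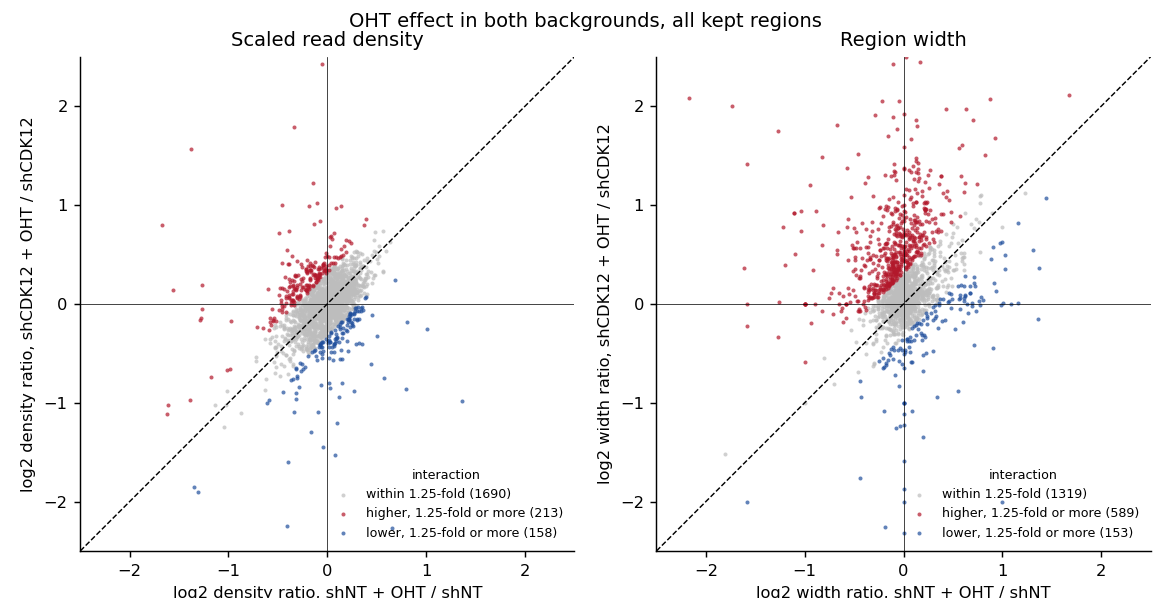
Log2 ratio with over without OHT in shNT cells (horizontal axis) and in shCDK12 cells (vertical axis) for scaled read density (left) and width (right), 1 point per kept region; the dashed line marks equal ratios, and 17 and 23 regions lie outside the axes. The density points lie on both sides of the line, which the scaling to the median of each list nearly fixes. Most coloured width points (589 of high against 153 of low interaction) lie above the line.

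In the 589 regions of high width interaction, median widths were 52.8, 50, 41.6 and 68.0 kb. The list of shCDK12 + OHT had the widest region of the 4 in 394 of them, and the list of shCDK12 the narrowest in 353. Over all kept regions the numbers were 786 and 783 of 2061. The choice of regions by their interaction favours these lists as the widest and the narrowest, so that these counts are a description of the 589 regions. In the 153 regions of low width interaction, the median widths lay closer together, at 43.6, 54.4, 50 and 40.4 kb. The narrowest list was shCDK12 + OHT in 67 of them and shNT in 63. Over all kept regions, 67.7% of the variance of the width interaction was carried by the ratio in silenced cells and 32.3% by the ratio in control cells. The 146 regions under 10 kb in a list weigh heavily in these shares. Their SD of the width interaction was 1.71, against 0.45 in the other 1915. The ratios, which share no list, were hardly related over regions (Spearman's rho 0.16, n = 2061, with depth and library shared by all regions of a list).

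The edges of the regions gave the same values a direction. With OHT in shNT cells, both edges lay further out in 20.5% of the kept regions and both further in in 23.5%. In shCDK12 cells both edges lay further out in 33.6% and both further in in 12.8%. The median movement per edge was 0 kb in shNT cells and 0.8 kb outward on either side in shCDK12 cells, which is 2 windows of the 400 bp grid on which the lists were called. Among the 589 regions of high width interaction, a median of 24.4 kb was added in silenced over control cells. Both edges lay further out in silenced than in control cells, relative to the lists without OHT, in 409 of them (69.4%). In 357 (60.6%) at least 80% of the added width came from 1 edge, so that the edges often contributed unequally. The choice of these regions by their width interaction favours outward edges. The same shares over all kept regions were not computed, so that these counts only describe the 589 regions.

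Density behaved otherwise. The median density interaction was 0.00, which the scaling nearly fixes, with quartiles of -0.14 and 0.16 and an SD over regions of 0.44. In the 1915 regions at least 10 kb wide in every list the SD was 0.23. It was high in 213 regions (10.3%) and low in 158 (7.67%), and past 1.5-fold in 50 (2.43%) and 46 (2.23%). The median counting error of a region's density interaction was 0.07 (Poisson SE on the log2 scale, from its 4 read counts). Of these 371 regions, 12 lay within 2 counting errors of 0. Counting error covers neither the spread between cultures nor duplicate reads. When the mean density of the list was used as the scale, 345 regions were high and 95 low, and with the median of regions at most 2 kb wide 291 were high and 115 low, so the balance between high and low depends on the scale. The ratios with OHT in the 2 backgrounds were related over regions (Spearman's rho 0.42, n = 2061), more than those of width.

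In the 213 regions of high density interaction, the median scaled density was 0.99, 0.86, 0.82 and 1.04, where 1 is the median of the list. The list of shCDK12 + OHT was the densest in 117 of them, and the least dense list was shNT + OHT in 106 and shCDK12 in 90. In the 158 regions of low density interaction the values were 1.34, 1.55, 1.5 and 1.11, and shCDK12 + OHT was the least dense in 98 and the densest in 0. The median density of these regions was thus above that of the list in every condition, while the order of the lists follows from how the regions were chosen.

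Density has width in its denominator, and the interactions of both moved against each other (Pearson's r -0.72, Spearman's rho -0.40, n = 2061). The 146 regions under 10 kb in a list weigh heavily in Pearson's r. Their SDs were 1.39 for density and 1.71 for width, against 0.23 and 0.45 in the other 1915. Of the 158 regions of low density interaction, 116 had a high width interaction and 1 a low one. Of the 213 regions of high density interaction, 71 had a low width interaction, 34 a high one and 108 neither. When reads per region were used in place of density, scaled in the same way, 322 regions were high and 530 low, with a median of -0.14. In 682 regions the width interaction lay within 0.1 of 0 on the log2 scale, a limit chosen after seeing the data. Of these, 57 (8.36%) were high in density and 15 (2.20%) low, against 10.3% and 7.67% of all kept regions. A high width interaction was found in 73.4% of the regions of low density interaction, against 28.6% of all kept regions. A low one was found in 0.633% of them, against 7.42% of all. In the regions of high density interaction the shares were 16.0% high and 33.3% low in width.

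**Figure D2:**
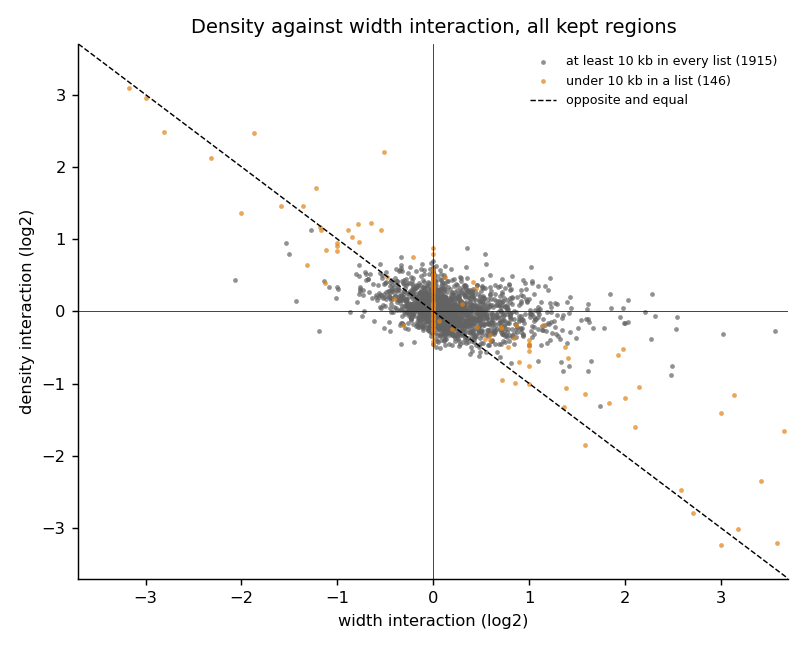
Density interaction (vertical axis, log2) against width interaction (horizontal axis, log2) for the kept regions, grey for those at least 10 kb wide in every list and orange for the 146 under 10 kb in a list; 9 regions lie outside the axes. The dashed line marks equal and opposite values. The 2 highest orange points (3.09 and 2.95 in density) lie near it, at -3.17 and -3.00 in width. A further 56 orange regions, with the same limits in all lists, lie at 0 in width, with density quartiles of -0.11 and 0.31. Over all points, the median density interaction was 0.30 where the width interaction was low and -0.10 where it was high.

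The most extreme values belonged to small regions. The lowest density interaction, -5.41, was that of a region on chromosome 9 (hg19, 79176001 to 79190800). It was 14.8, 1.6, 0.8 and 7.6 kb wide and held 344, 457, 223 and 440 reads. The next lowest, -4.91 on chromosome 11 (10505201 to 10536000), was 10.4, 2.4, 2.4 and 30.8 kb wide. The highest values, 3.09 (20701201 to 20704800) and 2.95 (107995201 to 107998800), were both on chromosome 12, in regions that were 3.6 and 3.2 kb wide in shCDK12 and at most 0.8 kb in the other lists. In these 4 regions the interaction in reads per region was between -0.33 and 0.79, far smaller than that of density. Named regions below were limited to the 1915 that were at least 10 kb wide in every list. The 8 with the highest and the 8 with the lowest density interaction, and the 6 at either end of the width interaction, are described.

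The lowest density interactions among the 1915 regions came with high width interactions. The region on chromosome 2 at 150574001 to 150626400 had a density interaction of -1.31 (counting SE 0.08). Its scaled density was 1.56, 1.67, 2.74 and 1.18, and its width was 33.6, 36.8, 14.4 and 52.4 kb. It was thus narrow and dense in silenced cells without OHT, and the least dense and widest with it. On chromosome 4 (83525601 to 83746400, interaction -0.88) the scaled density was 1.09, 1.11, 1.21 and 0.67. Its width was 53.2, 54.0 and 39.2 kb in the first 3 lists and 220.8 kb in shCDK12 + OHT. The control lists were nearly alike here, and the lists of silenced cells differed.

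A second region of chromosome 4 (30717201 to 30878000, -0.76) had densities of 0.87, 1.11, 0.88 and 0.66. It narrowed from 87.6 to 54.8 kb with OHT in control cells and widened from 44.4 to 156.0 kb in silenced cells. Both of these regions also ranked among the 6 highest width interactions, at 2.47 and 2.49. On chromosome 2 at 232028001 to 232165200 (-0.82) the density was 1.54, 1.57, 1.52 and 0.87, and on chromosome 11 at 77328001 to 77461200 (-0.71) it was 1.36, 1.51, 1.45 and 0.99. In both, 3 lists were close together and shCDK12 + OHT stood below them. Their widths in shCDK12 + OHT were 134.0 and 125.6 kb, against 48.0 to 56.0 kb and 50 to 52.8 kb in the other lists.

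The remaining low regions were on chromosome 16 (15095201 to 15127600, -0.83), chromosome 15 (44656401 to 44729600, -0.76) and chromosome 7 (76121601 to 76144800, -0.71). All 8 had a width interaction above 0, from 0.81 to 2.49. Counted as reads per region, 7 of the 8 lay above 0, up to 1.48, and the region of chromosome 7 was at -0.16. In 7 of these regions reads and density thus had interactions of opposite sign.

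The highest density interactions were of more than 1 kind. The region on chromosome 17 at 62460801 to 62496800 was highest, at 1.12 (counting SE 0.10). Its scaled density was 1.32, 1.01, 0.89 and 1.49, while its width was 22.4, 28.4, 36.0 and 18.8 kb. OHT went with lower density and greater width in control cells and with the reverse in silenced cells. The region on chromosome 7 at 76569601 to 76604000 (0.95) had densities of 0.76, 0.57, 0.54 and 0.78 and was 11.2 kb wide in shCDK12 + OHT, against 24.8 to 28.4 kb elsewhere. On chromosome 2 at 42730001 to 42808000 (0.80) the densities were 0.73, 0.55, 0.86 and 1.13. This region was 22.0, 56.4, 77.2 and 69.6 kb wide, so that it was narrow in untreated control cells only. In reads per region these 3 had interactions of -0.41, -0.84 and -0.97.

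In contrast, the regions on chromosome 3 at 105058801 to 105096800 (0.88) and on chromosome 11 at 102166801 to 102226400 (0.79) were high in density and in width. The former held 679, 2444, 256 and 1558 reads, and its density was 0.92, 0.98, 0.57 and 1.12. The latter held 1017, 1965, 413 and 1442 reads, with densities of 0.77, 0.59, 0.55 and 0.73. Both were least dense in shCDK12, and with OHT were denser in silenced than in control cells. Their interactions in reads per region were 0.98 and 1.07, the highest of the 8. On chromosome 7 at 24752001 to 24838400 (0.75) the densities were 0.80, 0.65, 0.58 and 0.79.

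The last 2 of the 8 differed from the others in that their width was stable. A region on chromosome 2 (90371601 to 90381600, 0.70) was 10 kb wide in all 4 lists, with densities of 1.38, 1.03, 1.19 and 1.44. A region on chromosome 4 (49631601 to 49660000, 0.67) was 26.8 to 28.4 kb wide and far above the median in every list, at 7.25, 6.01, 6.46 and 8.53. Both lie beside the centromere of their chromosome, as known for this assembly; no annotation of it was used here.

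**Figure D3:**
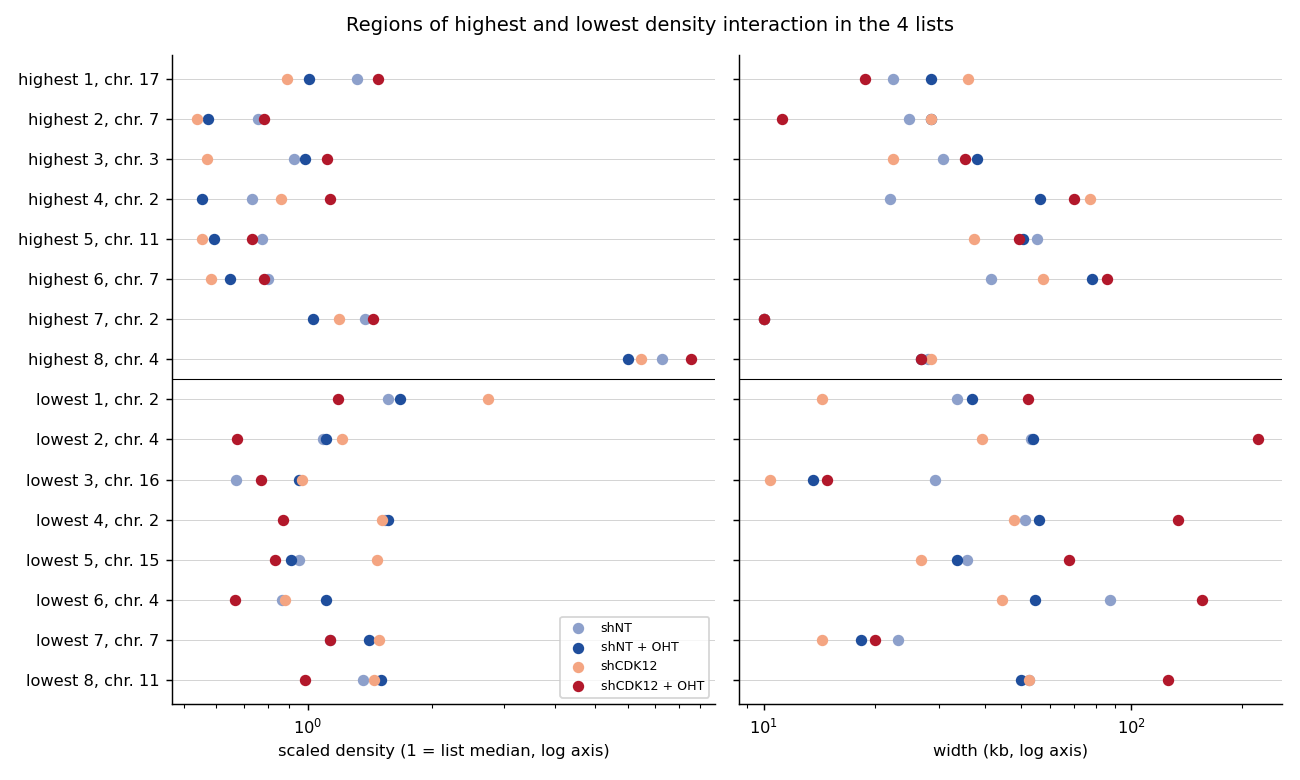
Scaled density (left, log axis, 1 is the median of the list) and width in kb (right, log axis) of the 8 regions with the highest and the 8 with the lowest density interaction among those at least 10 kb wide in every list, 1 point per list. In the lowest 8, shCDK12 + OHT is the least dense list in 6 and the widest in 6. In the highest 8 it is the densest in 6. The choice of regions by their interaction favours these positions. Over all 2061 kept regions this list was the least dense in 602, the widest in 786 and the densest in 660.

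This position recurred among the regions that had the same start and end in all 4 lists, a group set apart after seeing the data. There were 66 of them, 56 under 10 kb and 10 of at least 10 kb. Of the 56, 13 (23.2%) were high in density and 3 (5.36%) low, against 10.3% and 7.67% of all kept regions. Of the 10, 7 had a high density interaction, between 0.44 and 0.70, and all 7 lie in the pericentromeric part of their chromosome: besides chromosome 2 these were on chromosome 20 (29804001 to 29833200, 0.61), chromosome 11 (51567201 to 51593200, 0.59), chromosome 21 (10772801 to 10860800, 0.56), chromosome 10 (42525601 to 42545600, 0.54), chromosome 8 (43818801 to 43838800, 0.50) and chromosome 5 (49428801 to 49441600, 0.44). The other 3 lie away from a centromere, on chromosome 13 (114426001 to 114640000), chromosome 1 (17000401 to 17062400) and chromosome 10 (135498801 to 135524800), and had density interactions of 0.02, -0.06 and -0.20. Pericentromeric sequence is rich in repeats. Chromosome M, which is replicated apart from the nuclear genome, had a density interaction of 0.75 on the same scale.

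At all 6 of the highest width interactions, shCDK12 + OHT was the widest list, which the choice of regions by their interaction favours. The highest, 3.56 on chromosome 7 (29888801 to 30054000), was 34.4, 21.2, 22.8 and 165.2 kb wide. The next, 3.02 on chromosome 1 (235858401 to 235982000), had widths of 44.4, 18.4, 36.8 and 123.6 kb. Both were weak regions, with scaled densities between 0.53 and 0.85 in all lists. At 2 others shCDK12 stood apart as the narrow list. On chromosome 1 (115954401 to 116079600, 2.54) the widths were 118.8, 110.0, 23.2 and 125.2 kb, and on chromosome 20 (42508801 to 42625200, 2.53) they were 94.8, 104.0, 18.4 and 116.4 kb. A width interaction thus arose both from a region that widened beyond control size and from one that was short without OHT and came near control size with it.

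Low width interactions had the opposite forms. On chromosome 17 (39198401 to 39308400, -2.07) the region was 104.4, 91.6 and 91.6 kb wide in the first 3 lists and 19.2 kb in shCDK12 + OHT, where it held 503 reads against 1341 in shCDK12. On chromosome 11 (131892401 to 131984400, -1.19) the widths were 92.0, 89.6, 64.8 and 27.6 kb, and the scaled density went down in the same order, from 2.32 and 1.82 to 1.11 and 0.72. On chromosome 9 (117879201 to 117986800, -1.44) the region was 70.8 kb wide in shNT and 103.6 kb in shNT + OHT, but 48.8 and 26.4 kb in the silenced lists. In reads per region, these 3 had interactions of -1.88, -1.72 and -1.55. The other 3 of the 6 are the regions of chromosomes 7, 2 and 17 described above for their high density interaction.

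Across the kept regions, the width interaction followed signal strength. In the quartile with the lowest mean density (geometric mean over the 4 lists, median 0.665 of the list median), the median width interaction was 0.34, and 264 of 516 regions were high, against 28.6% of all. Quartiles were also set anew among regions with at least 1000 reads in every list, where the least dense quartile (275 regions) had a median of 0.094. Among regions above the median score it was 0.096 (222 regions). These quartiles are not the same regions as the 516. Without these limits the median was 0.12 in the next quartile, 0.06 in the one after, and 0.00 in the densest, where 67 of 515 were high. The median log2 width ratio with OHT in silenced cells was 0.32, 0.15, 0.05 and 0.00 over these groups, while in control cells it stayed between -0.03 and 0.03. Within regions of 30 to 100 kb alone, the share of high regions went from 59.5% in the least dense quartile to 16.1% in the densest. When regions were grouped by density in shNT only, the medians at either end were 0.31 and 0.00. Weak regions lie closest to the limit of detection of their list, and the lists differ in median density from 20.1 to 65.3 reads per kb. The part of detection in these widths was not tested.

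The widest domains had density interactions mostly below 0. The 71 regions over 300 kb wide had a median density interaction of -0.11 (quartiles -0.18 and -0.04) and a median width interaction of 0.01. With the mean density as the scale, the median density interaction was -0.023. Of them 1 was high in density, 0 were low, and 1 was high in width. Relative to the median of the lists, small shifts in 1 direction were thus shared by most rather than large ones by a few. In shNT cells their scaled density was higher with OHT by a median of 0.11 on the log2 scale, and in shCDK12 cells it was -0.02. The region with the largest mean width, on chromosome 8 (144185601 to 145187600), was 934.4 kb wide in shNT and 990.8 to 1002.0 kb in the other lists. Its density interaction was -0.07 (counting SE 0.01) and its scaled density 3.46, 3.77, 2.79 and 2.88. At the other end, 127 regions of 10 to 30 kb had a median density interaction of 0.12. Of them 39 (30.7%) were high and 12 (9.45%) low, against 10.3% and 7.67% of all kept regions. In regions of 2 to 10 kb the quartiles were -1.01 and 0.46, and in those up to 2 kb -0.33 and 0.36.

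**Figure D4:**
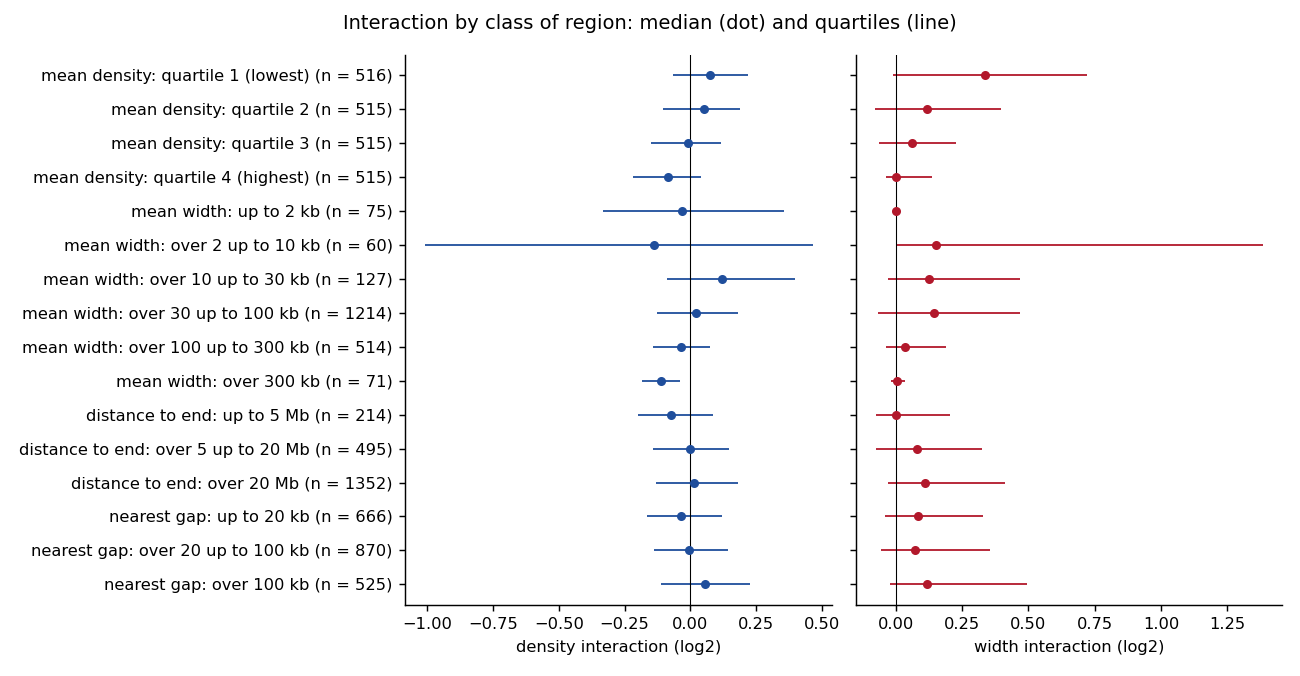
Median (dot) and quartiles (line) of the density interaction (left) and the width interaction (right), both log2, for kept regions grouped by mean density, mean width, distance to the end of the covered part of the chromosome, and gap to the nearest merged region. The width interaction goes down from 0.34 to 0.00 with rising density. In regions over 300 kb both quartiles of the density interaction are below 0, a position set by the scaling (median -0.023 with the mean density as scale).

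Regions near chromosome ends had lower values than those inside. Within 5 Mb of the end of the covered span, 214 regions had a median density interaction of -0.07 and a median width interaction of 0.00, and 18.7% were high in width. Over 20 Mb from the end, 1352 regions had medians of 0.01 and 0.11, and 31.1% were high in width. The regions near the ends were also wider (median 79.1 against 62.4 kb) and denser (1.14 against 0.99). Isolated regions, over 100 kb from the next merged region, had a median density interaction of 0.06 and a median width interaction of 0.12. Of these 525 regions, 185 (35.2%) were high in width, against 28.6% of all. Those within 20 kb of a neighbour had medians of -0.03 and 0.09. Isolated regions were also narrower than these (median 51.1 against 73.9 kb) and less dense (0.89 against 1.06). Neighbouring kept regions at most 0.1 Mb apart resembled each other weakly (Spearman's rho 0.11 for density and 0.13 for width, 550 pairs). Over 3 Mb apart the values were -0.01 and 0.08 over 237 pairs. The values of neighbours were thus only weakly related at any distance.

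By chromosome, the median width interaction was above 0 on all 22 autosomes. It was highest on chromosome 8 (0.19, n = 95) and chromosome 7 (0.18, n = 115), and lowest on chromosome 17 (0.01, n = 104). The share of regions high in width was 37.4% on chromosome 7 and 36.6% on chromosome 10, but 12.5% on chromosome 17 and 10.8% on chromosome 22, against 28.6% overall. The median density interaction was above 0 on 13 chromosomes and below it on 9. The position of 0 is set by the scaling, and with the mean density as scale the numbers were 20 and 2, and in reads per region 2 and 20. The median was lowest on chromosomes 19 (-0.12, n = 38) and 22 (-0.11, n = 37) and highest on chromosome 21 (0.16, n = 28). On chromosome 21, 8 regions (28.6%) were high in density and 3 (10.7%) low, against 10.3% and 7.67% of all kept regions. The value of chromosome 21 was 0.018 in reads per region, 0.064 with at least 1000 reads in every list, 0.066 with at least 1 region of each list and 0.066 without regions of the same limits. Chromosomes 17, 19 and 22 are rich in genes.

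The order of the chromosomes followed that of their regions' density: over the 22 chromosomes the median width interaction and the median of mean density had a Spearman's rho of -0.56, and the median density interaction and the median of mean width one of -0.59 (n = 22 chromosomes, all from the same 4 lists). When each region was compared with those of like mean density (10 groups, chosen after seeing the data), the median width interaction of chromosome 17 was -0.03 and that of chromosome 7 was 0.05. In the same comparison the density interaction of chromosome 19 was -0.14 and that of chromosome 21 was 0.15, close to the values without this step. Of the 28 regions of chromosome 21, 5 lie in the 10 Mb next to its centromere, and all 5 had a density interaction above 0.

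**Figure D5:**
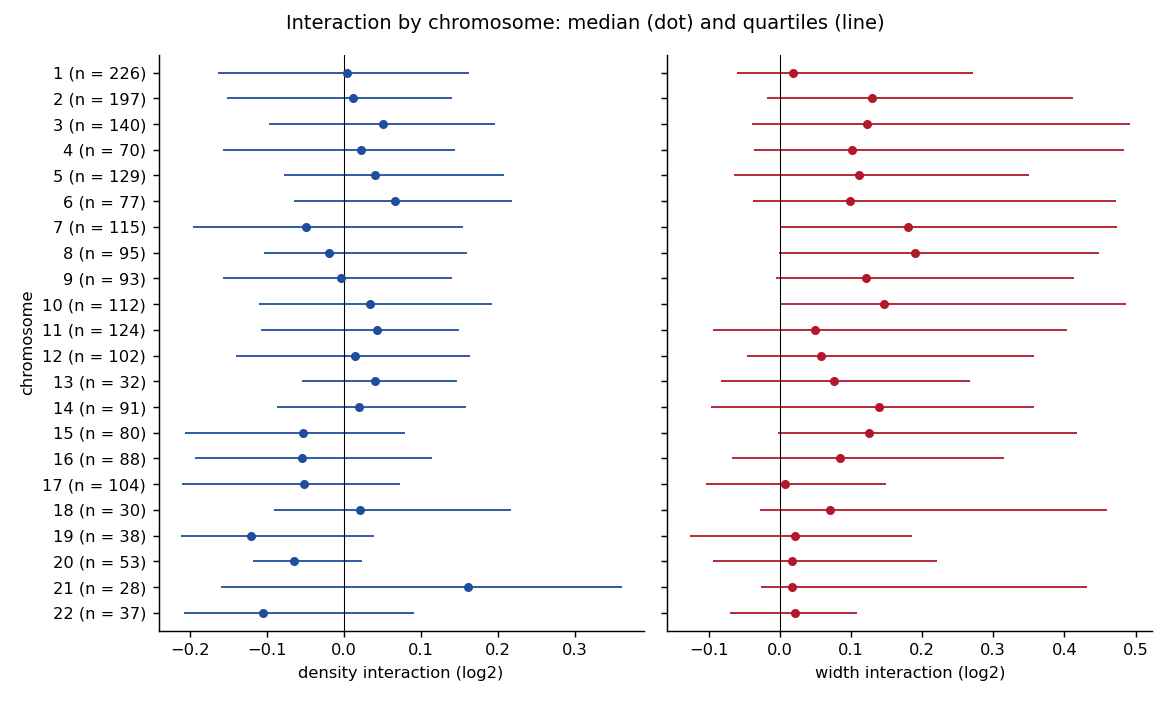
Median (dot) and quartiles (line) of the density interaction (left) and the width interaction (right), both log2, on each autosome, with the number of kept regions. All 22 width medians lie above 0, between 0.01 and 0.19, whereas the density medians lie on both sides of 0 (20 above and 2 below with the mean density as scale), between -0.12 and 0.16.

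Chromosomes were also cut into bins of 10 Mb. Over 198 bins with at least 5 kept regions, the bin medians of the density interaction had quartiles of -0.06 and 0.07. The 3 highest were 0.55 on chromosome 21 (10 to 20 Mb, 5 regions), 0.49 on chromosome 11 (50 to 60 Mb, 5 regions) and 0.46 on chromosome 9 (60 to 70 Mb, 6 regions). All of these border a centromere or its heterochromatin, and in each of them the median width interaction was 0.00. The next highest, 0.34 on chromosome 10 (40 to 50 Mb) and 0.32 on chromosome 8 (40 to 50 Mb), do so as well. Other bins beside centromeres had medians at or below 0, as on chromosome 7 (60 to 70 Mb, -0.10, 12 regions). On chromosomes 20 and 17 (both 20 to 30 Mb) they were -0.09 (7 regions) and -0.03 (18 regions). Both of the latter bins still hold a high region beside the centromere, at 0.61 (from 29804001) and 0.58 (from 22244401). A bin median therefore does not describe the sequence next to the centromere alone. The bins at or below 0 were picked after their values were seen. The 3 lowest were -0.47 on chromosome 1 (80 to 90 Mb, 5 regions), -0.22 on chromosome 7 (90 to 100 Mb, 17 regions) and -0.21 on chromosome 1 (10 to 20 Mb, 11 regions). The first and second of these had a median width interaction of 0.94 and 0.44, and the last of 0.03. In the latter bin 10 of 11 regions did not exceed 0 in density.

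Away from the centromeres, low density interactions at stable width included dense domains. Among 608 regions at least 10 kb wide with a width interaction within 0.1 and limits that differed between lists, the lowest was -0.51 on chromosome 8 (145501601 to 145795600). Its scaled density was 7.15, 7.78, 5.12 and 3.90. On chromosome 17 (79577201 to 79709200, -0.49) it was 3.60, 3.98, 3.27 and 2.57. Also on chromosome 17, at 1440801 to 1698800 (-0.41), it was 3.24, 3.29, 2.69 and 2.06, and on chromosome 10 at 73958401 to 74152000 (-0.40) it was 5.23, 5.57, 4.10 and 3.32. In all 4, density was higher with OHT in control cells, lower than control in shCDK12, and lowest in shCDK12 + OHT. The other 2 of the 6 lowest were narrow regions near the list median, on chromosome 7 (148911601 to 148946400, -0.45) and chromosome 17 (81176401 to 81195200, -0.42), with densities of 0.74, 0.75, 0.96 and 0.71 in the former and 1.01, 1.22, 1.03 and 0.92 in the latter. The 6 highest, from 0.55 to 0.67, all lay beside centromeres, on chromosomes 4, 10, 17 and 21. These regions were picked after their values were seen.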

How the data were processed

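EdU-seq with hydroxyurea was done on 12 samples of U2OS cells, 3 in each of 4 conditions. The authors deposited 1 list of broad regions per condition, called on merged replicates. BWA 0.6.2, SAMtools and SICER are named in the submitters' processing notes, without roles; their settings, any control library and duplicate removal are not given in the sources used here. The read counts deposited by the authors are whole and unscaled, with different totals in the lists. Each region also carries a deposited score, on a scale that was not stated. Limits lie on a grid of 400 bp. Those notes name hg19 and mm10, and the lists were read as hg19, since they pass the end of hg38 on 13 of 22 autosomes; the hg38 annotation was therefore not used, and genes and sequences are not given.

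Autosomal regions were merged across lists, and those holding exactly 1 region of each list were kept. Density was reads over (End - Start + 1), divided by the median of the list over kept regions. Positions are counted from 1. Reads in kept regions numbered 7414045 (shNT), 20596679 (shNT + OHT), 5586867 (shCDK12) and 11550190 (shCDK12 + OHT), and only counting error could be computed from them. Named regions follow a fixed rule (the 8 highest and lowest density and 6 highest and lowest width interactions among regions of at least 10 kb, the 2 highest and 2 lowest under 10 kb, the largest mean width, and the 3 highest and lowest bins); others were chosen after their values were seen, as stated. The regions, classes and rules were chosen with earlier results of these data known. Alternatives covered scale, width, reads, score, merging and classes. Functions were tested on simulated data. All steps were run in Python 3.11.15 (with pandas 2.3.3, numpy 2.4.6 and scipy 1.17.1), and figures drawn with matplotlib 3.10.9.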

Additional observations from a re-analysis of the deposited data

Results flagged for a closer look

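At some of the named regions OHT went with values at least 0.32 apart from 0 (log2) in opposite directions in the 2 backgrounds. With no replicates, these differences were not tested. For density, the interactions were 1.12 on chromosome 17 (from 62460801), 0.95 on chromosome 7 (from 76569601), 0.80 on chromosome 2 (from 42730001), 0.79 on chromosome 11 (from 102166801), -0.83 on chromosome 16 (from 15095201) and -0.76 on chromosome 4 (from 30717201). For width, they were 3.56 on chromosome 7 (from 29888801), 3.02 on chromosome 1 (from 235858401), 2.49 on chromosome 4 (from 30717201), -1.44 on chromosome 9 (from 117879201) and -1.28 on chromosome 17 (from 62460801). At regions named for density only, width interactions of this kind were 1.61 on chromosome 16 (from 15095201) and 0.81 on chromosome 7 (from 76121601). Among regions under 10 kb in a list, the density interactions were 3.09 and 2.95 on chromosome 12, -5.41 on chromosome 9 and -4.91 on chromosome 11. Of these regions, those of 2.95, -5.41 and -4.91 had opposite ratios in width as well, with width interactions of -3.00, 6.46 and 5.80. Over all kept regions, opposite ratios of this size were found in 25 for density and in 69 for width, and in 64 of these 69 the region was wider with OHT in silenced cells and narrower in control cells.

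Chromosome M lies outside the autosomes measured here. Its density interaction on their scale was 0.75, from log2 ratios with OHT of -1.62 in shNT cells and -0.87 in shCDK12 cells.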

How the results depend on the processing

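No paired analysis was possible because the 3 replicates of a condition were merged by the authors into 1 list. With 1 list per condition, no alternative leaves out a replicate. The median density interaction was 0.090 with the mean density as scale, 0.055 with regions at most 2 kb as scale, -0.14 with reads per region, -0.010 in regions at least 10 kb wide, -0.032 with at least 1000 reads, -0.010 with at least 1 region of each list and -0.011 above the median score. The numbers high and low in density were 345 and 95 with the mean as scale, 322 and 530 with reads per region, 52 and 69 with at least 1000 reads, 56 and 51 above the median score, 50 and 46 past 1.5-fold, and 55 and 16 with stable width and the scale set anew. The median width interaction was 0.035 with at least 1000 reads (1097 regions), 0.071 with at least 1 region of each list and 0.032 above the median score (885 regions). The numbers high and low in width were 172 and 45, 759 and 245, and 124 and 30 in the same order, and 322 and 58 past 1.5-fold. Chromosome 19 had a density median of -0.031 with the mean as scale, -0.36 in reads and -0.20 at stable width. Regions over 300 kb had -0.023 with the mean as scale and -0.34 in reads. Those of 10 to 30 kb had 0.21 with the mean as scale, 0.57 with at least 1000 reads (8 regions) and 0.52 above the median score (18 regions). For the width median by quartile, the quartiles were set anew within each alternative. That of the least dense quartile was 0.25 when quartiles were set by reads, 0.094 with at least 1000 reads and 0.096 above the median score. That of the densest quartile was 0.023 by reads and 0.017 without regions of the same limits. In reads per region, these named density interactions changed sign: -0.41 and -1.88 (chromosome 17), -0.84 (7), -0.97 and 0.17 and 0.28 (2), 1.34 and 1.48 (4), 0.53 (16), 0.40 (15), 0.37 and 0.64 (11), -0.33 and -0.31 (12) and 0.79 (9). Some regions named for width, with density interactions between -0.32 and 0.32, changed sign too: 3.03 (7), 2.45 and 2.22 (1), 2.03 (20) and -1.55 (9). Density has width in its denominator and reads per region do not; the cause of the other differences was not tested. Stable width and the removal of regions with the same limits were alternatives chosen after seeing the data. A further 94 values stayed within 1.5 times (counts) or within the 95% binomial interval of the median, which is wide for small groups: that of chromosome 21 ran from -0.11 to 0.28, and its median from 0.018 (reads per region) to 0.25 (mean as scale).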
